A study of Mus musculus with 14 samples.

Results

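The genes described here encode chromatin modifiers and remodellers, and they were taken by symbol alone. They comprise the lysine methyltransferases named Kmt and Setd, the lysine demethylases named Kdm, the CHD and Smarc remodellers, the Arid1, Arid2, Arid4 and Arid5 proteins, and Ezh1, Ezh2, Suz12 and Eed. The rule found 69 members among 14837 genes of the input table. By role they were 8 genes grouped as methyltransferases of histone H3 lysine 4 (the group holds Kmt2e, which is related by sequence and not known as an active enzyme of this mark), 10 other SET-domain enzymes, 4 core genes of PRC2, 17 lysine demethylases, 10 CHD remodellers, 12 SWI/SNF subunits, 4 ISWI and other SNF2-type ATPases, and 4 ARID4 and ARID5 proteins.

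Histone methyltransferases and demethylases place and remove methyl groups on the tails of histones, and remodelling ATPases slide, evict or exchange nucleosomes. In muscle stem cells (MuSCs) PRC2, which methylates lysine 27 of histone H3, is known for keeping muscle differentiation genes silent, while SWI/SNF complexes cooperate with MyoD at those genes. The transcripts of many of these enzymes are long, and m6A, the commonest internal methylation of mRNA, is read by proteins such as Igf2bp3.

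MuSCs of mouse skeletal muscle were compared in control cells, whose genotype is given as control only, and in Lin28a-positive cells (Lin28a+), which the study sorted by flow cytometry from mice carrying Lin28a-CreERT2 and LSL-tdTomato. Both groups were kept on Matrigel in DMEM with fetal bovine serum, and no age or drug is named. Each group had 2 input (RNA), 2 m6A-RIP and 2 Igf2bp3-RIP libraries, and Lin28a+ MuSCs also had 2 for Lin28a-RIP. The deposited input table names its Lin28a+ columns as m6A-RIP libraries, although the labels of the Lin28a+ input samples point to that table. They were taken as input here. Their totals (4842915 and 5057455) were near those of the control input (5466147 and 6220960) and below those of every m6A-RIP library. Input values are estimated per gene and m6A-RIP values are counted per peak, so these totals cannot tell which assay the columns hold. The names leave a doubt that bears on each Lin28a+ RNA value and on each comparison of RNA with RIP. In RIP-seq, RNA pulled down with an antibody is sequenced, so a RIP value carries the level of the transcript as well as its capture. Lin28a itself was not analysed here. The study speaks of biological replicates in general, but the labels do not say whether the 2 libraries of a group came from separate animals or cultures, so p-values measure the spread between these libraries, which may be technical. In bulk RNA, fewer cells that express a gene and less RNA per cell cannot be told apart.

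Total counts ran from 4842915 to 6220960 in the input, from 21350962 to 31830638 in m6A-RIP, from 9215355 to 34142094 in Igf2bp3-RIP and from 33908110 to 36610494 in Lin28a-RIP. Myogenic markers were present in all input libraries (all 12 of the list tested, with a summed level of 16397 to 16700 CPM in control against 15576 to 15741 CPM in Lin28a+ libraries, CPM being the count scaled to the library's effective size). They did not move together: 4 rose and 6 fell. No endothelial marker passed the filter on low counts in the input, and of the macrophage list only Cd14 did. Of the fibro-adipogenic list, 6 of 10 genes were tested, 3 fell and 1 rose, and the sum was 313.6 to 321.4 CPM in control against 196 to 198 CPM in Lin28a+ libraries. Of the pericyte or smooth muscle list, 5 of 8 were tested, 3 rose and 2 fell, and the sum was 5848 to 5882 CPM in control against 7700 to 7720 CPM in Lin28a+ libraries. Of 14 proliferation genes, 12 rose and 2 fell in Lin28a+ MuSCs, with sums of 1380 and 1385 CPM in control against 1891 and 1907 CPM in Lin28a+ libraries. The part of these shifts in the results below was not tested.

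RNA of the chromatin genes was more often lower than higher in Lin28a+ MuSCs. Of the 64 members with enough counts to be tested, 20 fell and 10 rose (edgeR's quasi-likelihood test, Benjamini-Hochberg adjusted p under 0.05 over all genes). Of all 11312 genes tested, 28.7% fell and 28.1% rose, 56.8% in either direction. The members were called in 46.9%, with 31.2% falling and 15.6% rising, and their median log2 fold change was -0.16 against 0.01 for all genes. A 2-fold change was passed by 4 members and by 1536 of all genes tested. DESeq2 called 26.8% of all genes (13.1% higher and 13.8% lower) and 14.1% of the 64 members. With it, 3 members rose (Chd3, Smarcb1 and Smarcd2) and 6 fell (Kdm7a, Kmt2e, Setd2, Setd7, Smarca5 and Smarcc1). Without control input library 1, the number that rose was 6. The 5 members below the filter on low counts were Chd5, Kdm5d, Setd4, Smarca1 and Smarca2, whose estimated counts per library ran from 0.143 to 4.72. Every member had input values with decimals, as a mean over transcripts would give, and so did 93.7% of all 14837 genes. Levels were therefore compared between libraries and not between genes. The edgeR test takes counts, and what rounding such values does to the RNA calls was not tested.

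**Figure D1:**
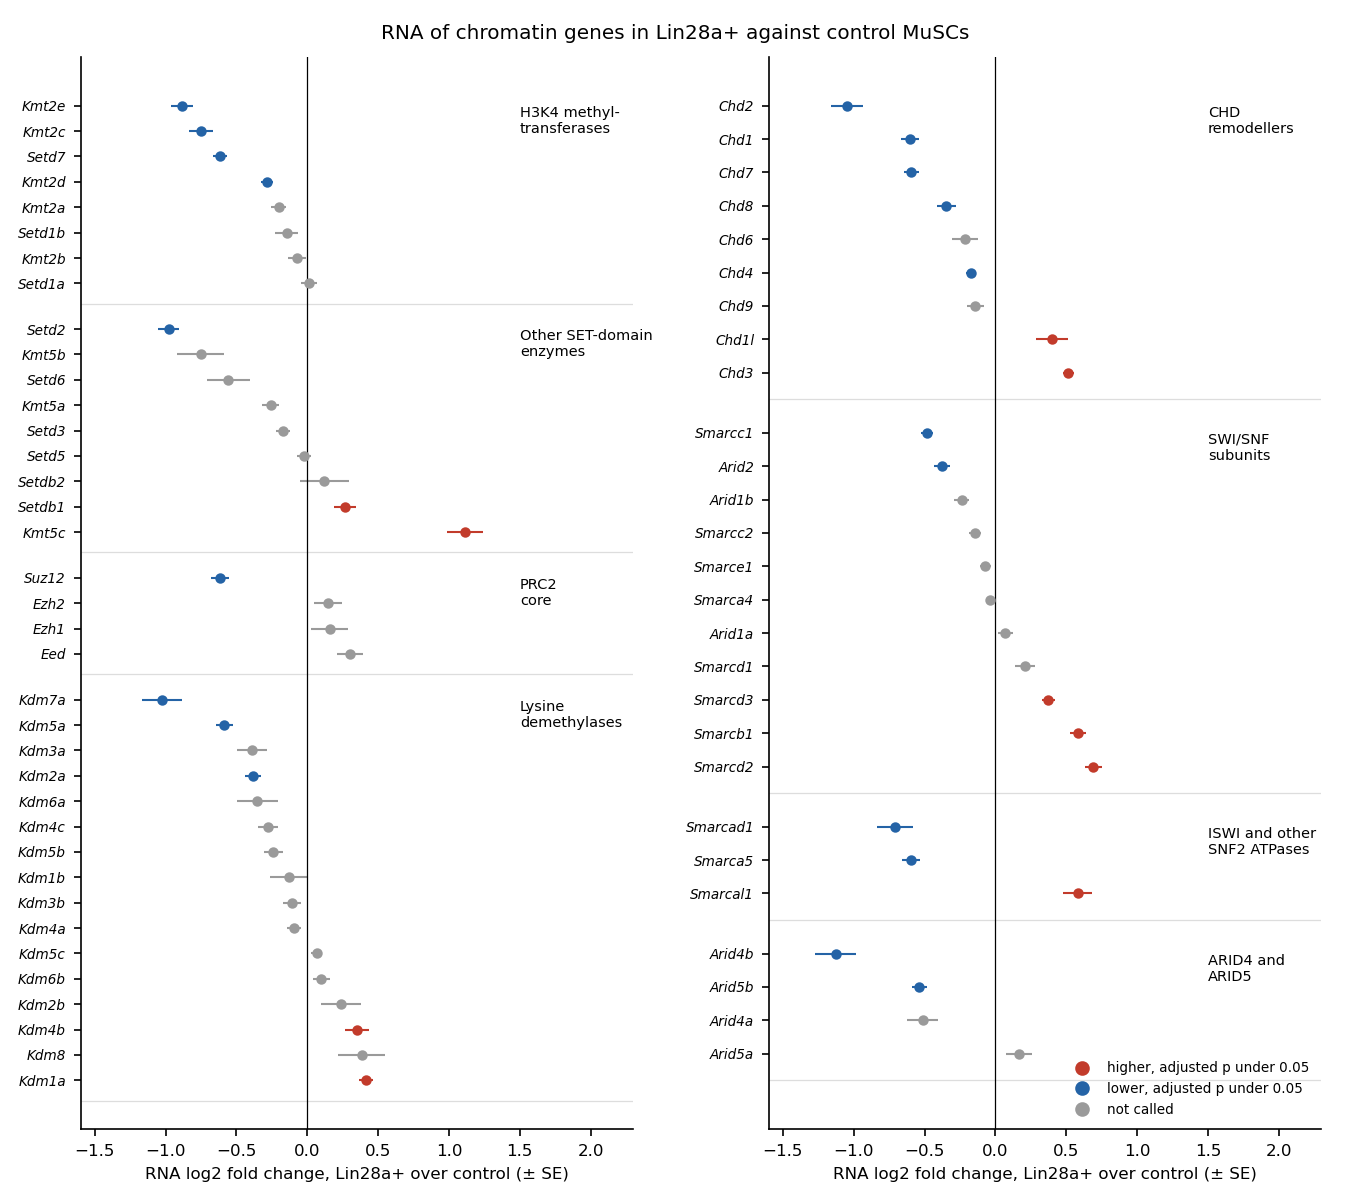
RNA log2 fold change of Lin28a+ over control MuSCs with its standard error for the 64 members tested, grouped by role and coloured by the call. Falling genes are found in every role, with Arid4b lowest at -1.13, and Kmt5c stands highest at 1.11.

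Start-site regions are shown for the 2 highest and the 2 lowest called members with an entry in the promoter table (Chd2, second lowest by value, had none), and for Suz12 and Ezh2 of PRC2, to put the values on the genome. The regions run from 250 bases before to 50 bases after a start site and come from RefSeq (GRCm38.p6), which held an entry for 54 of the 69 members, so no share over the members was taken. Capitals mark matches on either strand to TTTCCCGC or TTTGGCGC (forms of the E2F site), the NRF1 palindrome, CCGGAAGT (ETS), GGGGCGGGG (GC box), CCAAT and TATAAA. Kmt5c (chr7:4739877-4740176, plus strand) and Smarcd2 (chr11:106267583-106267882, minus strand) rose, and the region printed for Smarcd2 lies inside the gene, whose RefSeq span has its 5′ end at 106272998. Arid4b (chr13:14063534-14063833, plus strand) and Kdm7a (chr6:39206724-39207023, minus strand) fell. Suz12 (chr11:79992856-79993155, plus strand) fell, whereas Ezh2 (chr6:47594981-47595280, minus strand) was not called.
Kmt5c: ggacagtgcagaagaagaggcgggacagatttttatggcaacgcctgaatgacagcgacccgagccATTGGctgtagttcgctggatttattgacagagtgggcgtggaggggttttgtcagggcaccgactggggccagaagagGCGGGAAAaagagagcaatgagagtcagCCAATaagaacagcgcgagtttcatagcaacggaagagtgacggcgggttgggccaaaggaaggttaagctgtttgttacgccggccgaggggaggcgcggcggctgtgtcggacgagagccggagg
Smarcd2: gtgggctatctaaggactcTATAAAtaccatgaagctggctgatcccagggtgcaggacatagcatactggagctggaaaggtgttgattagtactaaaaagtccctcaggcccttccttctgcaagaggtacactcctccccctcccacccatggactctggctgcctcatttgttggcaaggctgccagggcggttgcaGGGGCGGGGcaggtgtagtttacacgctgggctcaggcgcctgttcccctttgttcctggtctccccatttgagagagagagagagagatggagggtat
Arid4b: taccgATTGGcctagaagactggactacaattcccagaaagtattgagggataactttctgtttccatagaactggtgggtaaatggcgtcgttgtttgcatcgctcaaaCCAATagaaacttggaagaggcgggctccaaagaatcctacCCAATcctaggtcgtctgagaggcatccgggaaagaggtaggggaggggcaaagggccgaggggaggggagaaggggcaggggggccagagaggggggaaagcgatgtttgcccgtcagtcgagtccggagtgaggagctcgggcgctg
Kdm7a: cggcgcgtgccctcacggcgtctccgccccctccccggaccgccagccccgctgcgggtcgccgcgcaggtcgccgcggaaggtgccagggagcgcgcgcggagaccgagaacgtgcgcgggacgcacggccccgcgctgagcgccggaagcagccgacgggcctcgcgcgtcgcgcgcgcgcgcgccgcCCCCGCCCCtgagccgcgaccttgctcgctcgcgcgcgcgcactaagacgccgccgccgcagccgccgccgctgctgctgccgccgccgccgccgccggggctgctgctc
Suz12: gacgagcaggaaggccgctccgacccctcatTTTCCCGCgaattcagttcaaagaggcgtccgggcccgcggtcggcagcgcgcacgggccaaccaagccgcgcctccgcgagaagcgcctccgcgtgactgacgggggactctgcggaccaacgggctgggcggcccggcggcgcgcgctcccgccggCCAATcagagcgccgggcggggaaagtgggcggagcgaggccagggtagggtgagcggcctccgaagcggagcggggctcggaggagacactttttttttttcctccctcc
Ezh2: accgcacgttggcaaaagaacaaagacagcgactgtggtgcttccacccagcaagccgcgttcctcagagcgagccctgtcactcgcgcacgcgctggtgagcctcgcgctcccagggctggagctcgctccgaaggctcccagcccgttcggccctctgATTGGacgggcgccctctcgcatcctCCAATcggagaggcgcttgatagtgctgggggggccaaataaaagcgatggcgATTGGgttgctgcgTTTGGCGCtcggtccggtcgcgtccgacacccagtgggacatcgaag
Kmt5c and Suz12 held the TTTCCCGC form, which was in 1.11% of all 27025 promoters of this length, and Ezh2 held TTTGGCGC, found in 0.537%. A CCAAT match, present in 37.9% of all promoters, was seen in Kmt5c, Arid4b, Suz12 and Ezh2. Smarcd2 held TATAAA (14.2% of all) and GGGGCGGGG (11.6%), and Kdm7a held the latter. None of these 6 held the NRF1 palindrome (0.977%) or CCGGAAGT (4%). A match is a description of the letters and not a bound site.

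Of the group of H3K4 methyltransferases, Kmt2e included, 4 of 8 fell and none rose, with a median log2 fold change of -0.24. The share that fell was 50%, beside 28.7% of all genes. Kmt2e, a SET-domain protein of the MLL family, had the lowest value. It was at 16.9 and 17.9 CPM in the control libraries and at 9.25 and 9.61 CPM in the Lin28a+ libraries, with a log2 fold change of -0.88 (SE 0.076, adjusted p = 0.000263, edgeR). Kmt2c, the catalytic subunit of an enhancer-associated complex, was at 15.6 and 16.1 CPM in control and at 8.85 and 10.0 CPM in Lin28a+ libraries (log2 fold change -0.75, SE 0.086, adjusted p = 0.000742). Kmt2d, the paralogue of Kmt2c, and Setd7, a monomethyltransferase, fell by 0.28 and 0.61 on the log2 scale, and Kmt2a, Kmt2b, Setd1a and Setd1b were not called, with log2 fold changes of -0.20 to 0.01.

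Of the other SET-domain enzymes, 9 of 10 were tested, 1 fell and 2 rose, shares of 11.1% and 22.2% beside 28.7% and 28.1% of all genes. Setd2, which trimethylates lysine 36 of histone H3, was at 18.7 and 18.8 CPM in control and at 9.84 and 9.20 CPM in Lin28a+ libraries, a log2 fold change of -0.98 (SE 0.072, adjusted p = 0.000146, edgeR). Kmt5c rose. This methyltransferase of lysine 20 of histone H4 was at 2.81 and 2.90 CPM in control and at 6.29 and 6.14 CPM in Lin28a+ libraries (log2 fold change 1.11, SE 0.127, adjusted p = 0.000768), on no more than 32 estimated counts in a library. Its paralogue Kmt5b had a value of the opposite sign, -0.75, that missed the threshold (SE 0.165, adjusted p = 0.0553). Setdb1, a methyltransferase of lysine 9 of histone H3, was called at the edge of the threshold (log2 fold change 0.27, adjusted p = 0.0499) and lost the call when any of 3 of the 4 libraries was left out (both control libraries and a Lin28a+ library).

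In PRC2, Suz12 fell and the other core genes were not called. Suz12 (ENSMUSG00000017548, chromosome 11, 79993106 to 80034123), a scaffold that PRC2 needs for its activity, was at 29.1 and 29.3 CPM in control and at 18.3 and 19.8 CPM in Lin28a+ libraries. Its log2 fold change was -0.62 (SE 0.062, adjusted p = 0.000473, edgeR), with an adjusted p of 0.0657 in DESeq2. Eed, which binds the methylated histone tail, was at 9.75 and 8.70 CPM in control and at 11.4 and 11.2 CPM in Lin28a+ libraries (log2 fold change 0.30, SE 0.090, adjusted p = 0.175). Ezh2, the catalytic subunit, was at 10.3 and 10.1 CPM in control and at 12.2 and 10.4 CPM in Lin28a+ libraries (log2 fold change 0.15, SE 0.100, adjusted p = 0.521). Ezh1, the alternative catalytic subunit, had a log2 fold change of 0.16 (SE 0.128, adjusted p = 0.643). Groups that did not overlap were common, in all 4 of these genes as in 9595 of all 11312 genes tested, so this says little about PRC2.

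**Figure D2:**
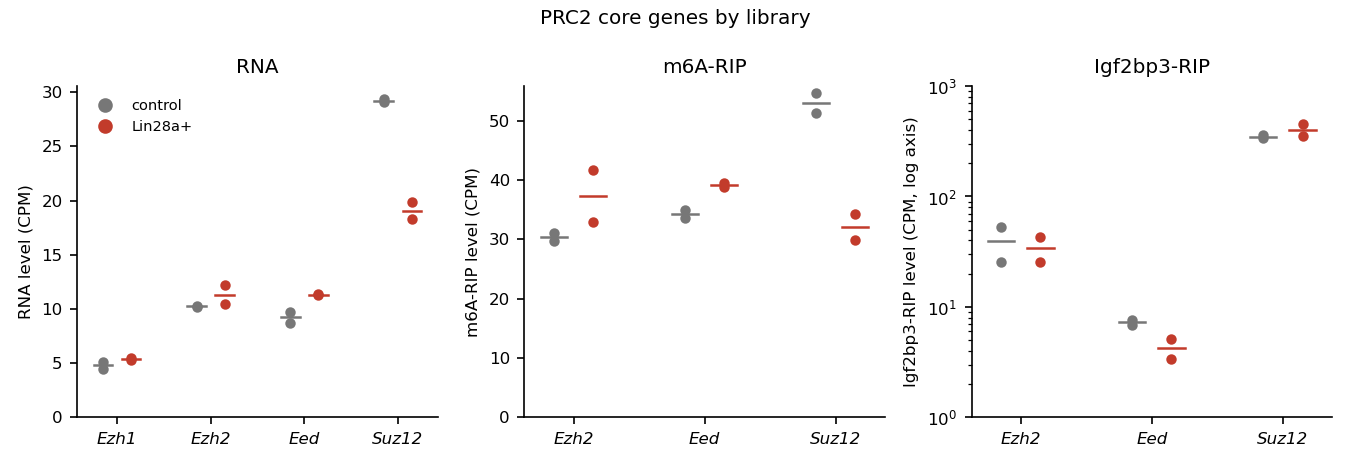
Levels of the PRC2 core genes in each library (points) with the group mean (bars), in CPM, for RNA, m6A-RIP summed per gene and Igf2bp3-RIP summed per gene (the last on a log axis). Suz12 lies lower in both Lin28a+ libraries for RNA and m6A-RIP, whereas its Igf2bp3-RIP points overlap between the groups. Ezh1 has no m6A-RIP or Igf2bp3-RIP row.

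Among lysine demethylases, 16 of 17 were tested, 3 fell, 2 rose and 11 were not called. The called share was 31.25%, beside 56.8% of all genes. Kdm7a, a demethylase of H3K9 and H3K27, was at 19.5 and 17.9 CPM in control and at 7.67 and 10.6 CPM in Lin28a+ libraries (log2 fold change -1.03, SE 0.142, adjusted p = 0.00156, edgeR). Kdm5a, a demethylase of H3K4, fell from 19.9 and 20.1 CPM to 13.4 and 13.3 CPM (log2 fold change -0.58, adjusted p = 0.000609). Kdm1a, which also removes methyl groups from H3K4, moved the other way. It rose from 34.9 and 35.3 CPM to 45.8 and 47.9 CPM (log2 fold change 0.42, SE 0.048, adjusted p = 0.000798). Kdm4b, a demethylase of H3K9, rose by less (log2 fold change 0.35, adjusted p = 0.0358) and was not called when either control library or 1 of the Lin28a+ libraries was left out. Kdm6a and Kdm6b, which also act on H3K27, were not called (log2 fold changes -0.35 and 0.10).

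The CHD remodellers were called in 7 of 9 tested (77.8%, beside 56.8% of all genes), with 5 lower and 2 higher. Chd2 had the lowest value. It was at 8.44 and 9.34 CPM in control and at 4.33 and 4.30 CPM in Lin28a+ libraries (log2 fold change -1.05, SE 0.113, adjusted p = 0.00061, edgeR). Chd1, which binds trimethylated H3K4, was at 27.2 and 27.7 CPM in control and at 18.7 and 17.4 CPM in Lin28a+ libraries (log2 fold change -0.61, adjusted p = 0.000504). The ATPases of the NuRD complex parted: Chd3 rose from 58.1 and 59.3 CPM to 83.2 and 84.7 CPM (log2 fold change 0.51, SE 0.037, adjusted p = 0.000141), and Chd4 fell by 0.18 on the log2 scale (SE 0.030, adjusted p = 0.00379). Chd1l, a remodeller recruited to DNA damage, was called higher (log2 fold change 0.40, adjusted p = 0.0283) but not when control library 1 or a Lin28a+ library was left out.

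Of 11 SWI/SNF subunits tested, 3 rose, 2 fell and 6 were not called, shares of 27.3% and 18.2% beside the 28.1% and 28.7% of all genes. Smarcd2, an accessory subunit, was at 17.8 and 18.5 CPM in control and at 28.9 and 29.9 CPM in Lin28a+ libraries (log2 fold change 0.69, SE 0.058, adjusted p = 0.000241, edgeR). Smarcb1, a core subunit, rose from 45.7 and 41.7 CPM to 64.5 and 65.9 CPM (log2 fold change 0.58, adjusted p = 0.000379), and Smarcd3, which takes part in muscle gene activation, rose by 0.37. Smarcc1, a scaffold of the complex, fell from 76.3 and 76.5 CPM to 56.1 and 53.4 CPM (log2 fold change -0.48, SE 0.042, adjusted p = 0.000262). Arid2, the defining subunit of the PBAF form, fell by 0.38. The ATPase Smarca4 was not called (log2 fold change -0.04, SE 0.026), nor was Arid1a, which defines the BAF form (0.07, SE 0.053).

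Of the other ATPases, the 3 tested were called. Smarca5, the ATPase of the ISWI complexes, was at 49.7 and 47.5 CPM in control and at 30.3 and 34.0 CPM in Lin28a+ libraries (log2 fold change -0.60, SE 0.066, adjusted p = 0.000669, edgeR). Smarcad1 fell by 0.71 on the log2 scale from 6.19 and 6.28 CPM to 3.54 and 4.09 CPM, and its call was lost when either control library or 1 Lin28a+ library was left out. Smarcal1, an annealing helicase of stalled replication forks, rose (log2 fold change 0.58, adjusted p = 0.00499), and this call was lost without control library 1. Among the ARID4 and ARID5 proteins, Arid4b, a subunit of the Sin3 complex, had the lowest value of all members at -1.13 (SE 0.144, adjusted p = 0.00181), on 5.44 and 5.15 CPM in control against 2.36 and 2.45 CPM in Lin28a+ libraries. Arid5b fell by 0.54 (adjusted p = 0.00042).

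Longer members were lower. Across the 64 members tested, the RNA log2 fold change and log10 of the genomic span of the gene had a Pearson r of -0.47 and a Spearman rho of -0.47, where r was -0.26 and rho was -0.34 over 10950 genes tested. The points share the same 4 libraries. The median span was 77.0 kb for the 20 members that fell, 45.0 kb for the 34 not called and 32.8 kb for the 10 that rose. Members with and without Lin28a-RIP peaks also differed in their counts. Of 43 tested members with a Lin28a-RIP peak, 18 fell and 5 rose (median log2 fold change -0.28), and of 21 without a listed peak, 2 fell and 5 rose (median 0.12). Over all genes tested, 42.6% of those with a peak and 24.0% of those without fell, and 20.5% and 30.7% rose, so the split went the same way over genes at large. Igf2bp3-RIP peaks gave a like split. Of 49 tested members with such a peak, 19 fell and 5 rose, and of 15 without, 1 fell and 5 rose. Over all genes, 46.2% of those with and 20.2% of those without an Igf2bp3-RIP peak fell. How span, expression and binding depend on each other was not tested.

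Partners of these enzymes, taken from lists of complex subunits and of other chromatin enzymes, were more often higher than lower. Of 126 partner genes tested, 53 rose and 27 fell, with a median log2 fold change of 0.25, where 28.1% of all genes tested rose, 28.7% fell and the median was 0.01. COMPASS partners, the cofactors of the H3K4 methyltransferases, rose in 8 of 12 and fell in none, and Cxxc1, a CpG-binding subunit, had the smallest p (log2 fold change 0.85). NuRD partners rose in 7 of 12 and fell in 1, with Cdk2ap1 at 0.69 and the methyl-CpG binder Mbd2 at -0.74. Histone deacetylases rose in 4 of 12 and fell in none, and Hdac1 (0.64) had the smallest p of those that rose. The INO80 and SRCAP family rose in 9 of 16 and fell in 4, with the helicase Ruvbl2 at 0.97 and Ino80c at -0.60. Other histone methyltransferases rose in 8 of 15 and fell in 4, with the arginine methyltransferase Prmt1 at 0.79 and the H3K36 enzyme Ash1l at -1.09.

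The remaining partner lists were mixed. Other SWI/SNF subunits rose in 4 of 13 and fell in 1, with Actl6a at 0.88 and Pbrm1, a PBAF subunit like Arid2, at -0.97. ISWI partners fell in 4 of 8 and rose in 1, with Bptf, the large subunit of NURF, at -0.69 and Chrac1 at 0.52. PRC2 partners rose in 3 of 8 and fell in 2, with the histone chaperone Rbbp4 at 0.33 and Aebp2 at -0.51. PRC1 subunits rose in 5 and fell in 5 of 18, with Pcgf3 at -0.69. Histone acetyltransferases rose in 4 and fell in 4 of 10, with Kat8 at 0.92 and Kat6a at -0.78. Genes of DNA methylation rose in 2 and fell in 2 of 7, with Uhrf1, which recruits the maintenance methyltransferase, at 1.21 and the dioxygenase Tet2 at -1.06. The genes named from these lists passed the edgeR threshold and have the smallest p of their list in their direction.

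In m6A-RIP, 61 of the 69 members were listed. With the rows of a gene summed, 30 members fell and 13 rose. Of all 9413 genes tested, 33.7% fell and 32.5% rose (66.2% in either direction, edgeR). The median log2 fold change was -0.22 for the members and 0.01 for all genes. Setd2 had the smallest p. It was at 121 and 127 CPM in control and at 62.5 CPM in both Lin28a+ libraries (log2 fold change -0.99, SE 0.048, adjusted p = 3.44e-09). Kmt5b and Kmt5c moved in opposite directions, with the signs of their RNA values, of which that of Kmt5b was not called. Kmt5b fell from 51.3 and 52.1 CPM to 24.4 and 24.2 CPM (log2 fold change -1.09, adjusted p = 4.68e-08), and Kmt5c rose from 9.13 and 8.59 CPM to 22.5 and 24.5 CPM (log2 fold change 1.40, adjusted p = 7.4e-07). Arid4b was again lowest (log2 fold change -1.34, adjusted p = 7.65e-06).

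Of the H3K4 methyltransferase group, Kmt2e included, 6 of 8 fell and none rose in m6A-RIP, led by Kmt2c (log2 fold change -0.86) and Kmt2e (-0.83). The CHD remodellers fell in 6 of 10, with Chd7, a remodeller of enhancers, at -0.65 (adjusted p = 3.62e-08) and Chd2 also at -0.65, and Chd3 rose by 0.44. Demethylases fell in 4 and rose in 3 of 13, with Kdm5a at -0.82, Kdm2a at -0.42, Kdm4b at 0.52 and Kdm1a at 0.29. SWI/SNF subunits fell in 4 and rose in 4 of 12, with Smarcc1 at -0.58, Arid2 at -0.46, Smarcb1 at 0.56 and Smarca2 at 0.79. These shares were 30.8% lower and 23.1% higher for demethylases and 33.3% each way for SWI/SNF subunits. Over all genes 33.7% fell and 32.5% rose. The call for Smarca2, an ATPase alternative to Smarca4, rested on 2.09 and 2.17 CPM in control against 4.26 and 3.17 CPM in Lin28a+ libraries, and it was lost without control library 1 or without the higher Lin28a+ library. Arid5a rose by 0.25, Arid4a fell by 0.77 and Smarcal1 rose by 0.53. The Kdm1a call was lost without 1 of the Lin28a+ libraries.

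In the same libraries 3 of 8 endothelial markers were tested and 2 rose (sums of 14.1 and 16.7 CPM in control against 24.3 and 22.9 CPM in Lin28a+), and 2 of 3 fibro-adipogenic markers fell. Of 8 proliferation genes tested, 6 rose and 2 fell (746 and 766 against 894 and 893 CPM). Of 4 pericyte or smooth muscle markers tested, 2 rose and 1 fell (801 and 797 against 1130 and 1104 CPM). Of 12 myogenic markers, 6 rose and 5 fell. The part of these shifts was not tested. In PRC2, Suz12 fell from 51.3 and 54.6 CPM to 29.9 and 34.4 CPM in m6A-RIP (log2 fold change -0.71, SE 0.080, adjusted p = 6.39e-06, edgeR), with all 3 of its rows lower. Ezh2 was called higher at 29.8 and 31.2 CPM in control against 41.7 and 32.9 CPM in Lin28a+ libraries (log2 fold change 0.29, adjusted p = 0.025), and Eed at 34.9 and 33.6 CPM against 39.6 and 38.8 CPM (0.19, adjusted p = 0.0298). Both calls depended on the settings. With total counts, which shifted the median of all genes from 0.01 to -0.09, the values were 0.19 (adjusted p = 0.132) for Ezh2 and 0.09 (adjusted p = 0.275) for Eed. Without the higher Lin28a+ library the value for Ezh2 was 0.12 (adjusted p = 0.296). The call for Eed was also lost in DESeq2 (adjusted p = 0.0881) and without control library 2 or either Lin28a+ library (adjusted p = 0.0553 to 0.128, edgeR).

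Set beside RNA, the m6A-RIP changes of the members followed the same sign in 55 of 59 genes tested in both, where it was 6340 of 7415 (85.5%) over all genes. Pearson's r was 0.88 and Spearman's rho 0.89 across the 59 members, and r was 0.83 over all genes, with all points from the same 8 libraries, the Lin28a+ input columns under m6A-RIP names among them. Of the 20 members whose RNA fell, 17 also fell in m6A-RIP, and 8 of the 9 listed members whose RNA rose also rose. In the direct test of m6A-RIP relative to RNA (an interaction term in edgeR over 8 libraries), none of the 61 members passed, against 7.14% of 7943 genes (3.05% higher and 4.09% lower). The unadjusted p was under 0.05 for 5 members and for 1350 genes in all. Smarcd2 came nearest. Its m6A-RIP value rose by 0.31 and its RNA by 0.69, a difference of -0.40 (SE 0.118, adjusted p = 0.076). For Suz12 the difference was -0.11 (SE 0.140), for Setd2 -0.03 (SE 0.124), for Kmt2e 0.04 (SE 0.169), for Ezh2 0.12 (SE 0.246) and for Eed -0.12 (SE 0.143). These fits share the input libraries with the RNA comparison.

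**Figure D3:**
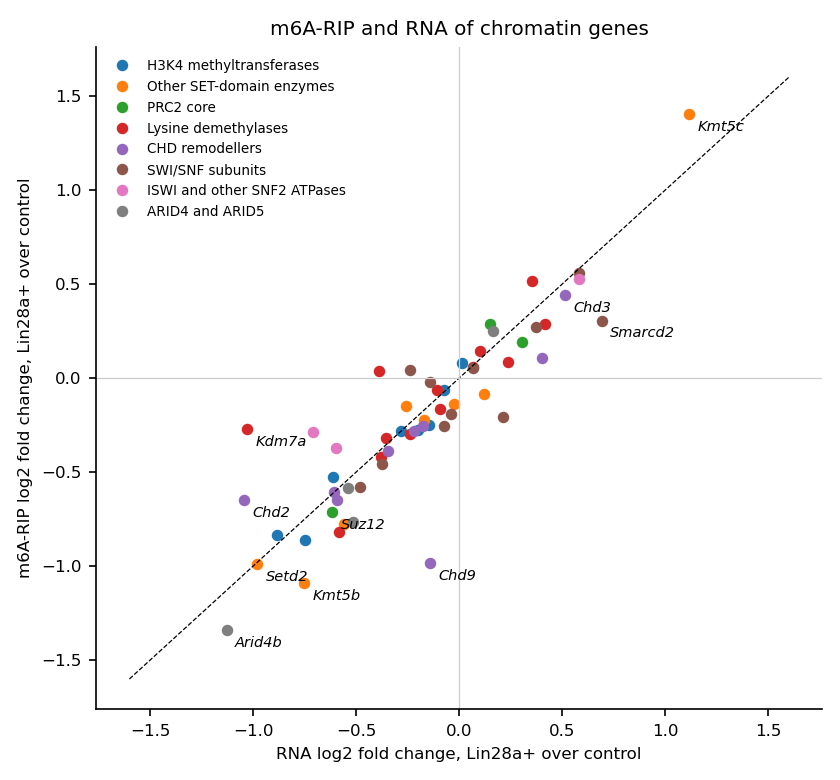
m6A-RIP log2 fold change (rows summed per gene) against RNA log2 fold change for the 59 members tested in both, coloured by role, with the line of equal change dashed. Points follow the line from Arid4b at the lower left to Kmt5c at the upper right, and Chd9 and Kdm7a lie farthest from it.

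Row by row, 76 of the 202 member rows were lower and 32 higher, against 31.8% lower and 30.0% higher of all 18881 rows (61.8% in either direction). With total counts in place of TMM, which moved the median of all rows to -0.15, the split became 112 lower and 22 higher. Over all 18881 rows it then became 7638 lower and 3842 higher. In Setd2 all 7 rows fell and in Kmt2e all 4 rows fell. Some genes held rows that differed. Chd2 had the widest spread. Its larger row was at 33.8 and 33.3 CPM in control and at 15.6 and 15.4 CPM in Lin28a+ libraries (log2 fold change -1.11, adjusted p = 1.23e-07), while its smaller row, on the same transcript, was at 2.18 and 1.46 CPM against 8.61 and 7.32 CPM (log2 fold change 2.09, adjusted p = 3.53e-06). Of the rows of Kdm7a, 1 fell (log2 fold change -1.50, adjusted p = 0.00148) and the other was not called (0.25). Arid1b, the paralogue of Arid1a, had a row of 30.1 and 30.6 CPM in control that was not called (-0.16, but -0.31 and called lower under total counts) and smaller rows that were called higher (0.46 and 0.84), the last of which lost its call without control library 2 or 1 of the Lin28a+ libraries and under total counts. The table gives no positions for its rows, so where on the transcript they lie was not analysed here.

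Igf2bp3-RIP listed 366 peaks in 50 members, and no peak and no member was called different between the groups by edgeR with no term for the replicate number. In this fit, 0.123% of all 19465 peaks (0.0616% in each direction) and 0.287% of all 4524 genes (0.133% higher and 0.155% lower) passed. Unadjusted p-values under 0.05 were found for 4 member peaks and 1 member, against 1017 peaks and 382 genes in all, and DESeq2 called no member peak and no member either, while it called 263 peaks and 115 genes in all. The spread between replicates was wide, with a biological coefficient of variation of 27.9% for peaks and 25.4% for genes. It was 2.48% for RNA, whose values are estimated per gene. Differences between libraries 1 and 2 correlated between the groups (r = 0.70 over peaks), though the labels state no pairing. With a term for the replicate number, 1988 of all peaks were called, member peaks among them, and still no member. Without that term, the lower member peak with the smallest p lay in Kdm5b (chromosome 1, 134631130 to 134631397), at 21.7 and 18.6 CPM in control against 13.6 and 8.65 CPM in Lin28a+ libraries (log2 fold change -0.86, SE 0.334, adjusted p = 0.899, edgeR). Peaks of Kmt2b (chromosome 7, 30574613 to 30574950, log2 fold change -0.74) and Kdm4a (chromosome 4, 118160383 to 118160688, -0.72) came next.

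The higher peaks with the smallest p lay in Kdm6a (chromosome X, 18263775 to 18263980, log2 fold change 0.73, SE 0.342) and Kmt2e (chromosome 5, 23495827 to 23496134, 0.60, SE 0.289, and 23481050 to 23481249, 0.46, SE 0.273). For Suz12 the summed level was 337 and 358 CPM in control against 349 and 451 CPM in Lin28a+ libraries (log2 fold change 0.20, SE 0.219, adjusted p = 0.876). Ezh2 varied more within groups, at 53.2 and 25.4 CPM in control against 43.4 and 25.5 CPM in Lin28a+ libraries (-0.19, SE 0.435). Eed was at 7.61 and 6.91 CPM against 3.38 and 5.16 CPM (-0.74, SE 0.345, adjusted p = 0.629). Relative to RNA, 1 of the 50 members passed with no term for the replicate number, against 1.05% of 3922 genes (0.357% higher and 0.688% lower). With such a term 1300 genes passed, and more members among them. The member called without it was Smarcd2, whose Igf2bp3-RIP level was 45.3 and 47.6 CPM in control against 40.0 and 37.2 CPM in Lin28a+ libraries while its RNA rose, a difference of -1.19 (SE 0.163, adjusted p = 0.0366, edgeR). With each of the 4 input libraries left out in turn the adjusted p was 0.26 to 0.331, and with total counts it was 0.0522.

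Both binding tables listed the chromatin genes more often than genes at large. Of the 64 members tested in RNA, 49 (76.6%, Wilson 95% interval 64.9 to 85.3) had an Igf2bp3-RIP peak, where 32.9% of 11305 genes did. A Lin28a-RIP peak was listed for 43 (67.2%, interval 55.0 to 77.4), where 25.4% of genes had one. The median span was 56.1 kb for the members and 22.9 kb for all genes, and its part was not tested. In all 69 members, 41 were in both tables, 2 (Arid4a and Kdm3a) in Lin28a-RIP alone, 9 in Igf2bp3-RIP alone, and 39 in m6A-RIP, Igf2bp3-RIP and Lin28a-RIP. The 5 in no RIP table were Ezh1, Kdm5d, Kdm8, Setd4 and Smarca1. Intervals cover counting error only.

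Lin28a-RIP, which has no control group, listed 431 peaks in 43 members. A bound member had a median of 9 peaks and a bound gene of any kind 3. The members with most peaks were Chd1 with 29, and Chd8, Kdm5b, Kmt2c and Smarcc1 with 23 each. Of the member peaks, 98.6% lay in the RefSeq span of their gene in GRCm38.p6. The highest lay in Chd4 (chromosome 6, 125121085 to 125122533), at 390 and 392 CPM in the 2 libraries, where the median over all 21616 peaks was 20.6 CPM. A second Chd4 peak (125113703 to 125114452) was at 303 and 309 CPM. Peaks of Kmt2d (chromosome 15, 98861647 to 98865377), Smarcc1 (chromosome 9, 110237644 to 110240084) and Setd2 (chromosome 9, 110547098 to 110551449) were at means of 295, 289 and 279 CPM, the last over 4352 bases. In PRC2, Suz12 had 6 peaks that summed to 201 and 189.7 CPM, Eed had 3 (39.5 and 39.4 CPM), Ezh2 had 1 (17.6 and 17.0 CPM) and Ezh1 had none listed.

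**Figure D4:**
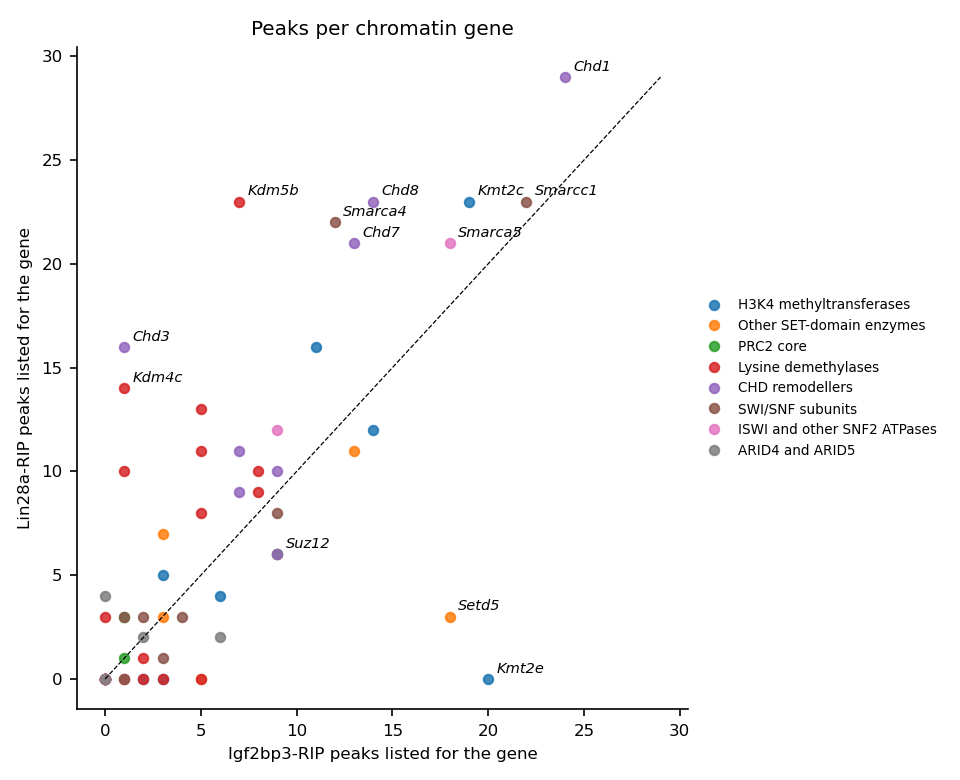
Number of Lin28a-RIP peaks against number of Igf2bp3-RIP peaks listed for each of the 69 members, coloured by role, with equality dashed and some points overlapping. Most genes with many peaks in one table have many in the other, while Kmt2e and Setd5 lie far below the line and Chd3, Kdm4c and Kdm5b far above it.

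Peaks of both proteins often lay at the same place. Of the member peaks in Lin28a-RIP, 250 of 431 (58.0%, Wilson 95% interval 53.3 to 62.6) shared at least 1 base with a peak of Igf2bp3, against 52.4% over all genes. In the other direction 272 of 366 (74.3%, interval 69.6 to 78.5) did so, against 60.4%. The members differed among themselves. In Suz12 all 6 peaks of Lin28a met a peak of Igf2bp3, in Arid2 all 8, in Smarcc1 20 of 23 and in Setd2 10 of 11. Kmt2e had 20 Igf2bp3-RIP peaks and none listed in Lin28a-RIP, and Setd5 had 18 and 3. The opposite held for Chd3, with 16 Lin28a-RIP peaks and 1 Igf2bp3-RIP peak, for Kdm4c with 14 and 1, and for Kdm5b with 23 and 7. These 5 genes were picked after their values were seen.

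Positions along the gene differed among the 5 genes mapped, which were chosen after their values were seen. In Kmt2c, whose span is 227 kb, 21 of 23 Lin28a-RIP peaks and 16 of 19 Igf2bp3-RIP peaks lay in the distal 50%, counted from the 5′ end. In Chd8 this was so for 19 of 23 and 11 of 14, and the first peak of either protein began 20.2 kb from the 5′ end of this 59.9 kb gene. Kdm5b had 18 of 23 and 6 of 7 there, and Setd5 had 3 of 3 and 14 of 18. Smarcc1 peaks were spread along its 108 kb, with 9 of 23 and 11 of 22 in the distal 50%. The files give no exon positions, so whether peaks lie in exons or introns was not analysed here.

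**Figure D5:**
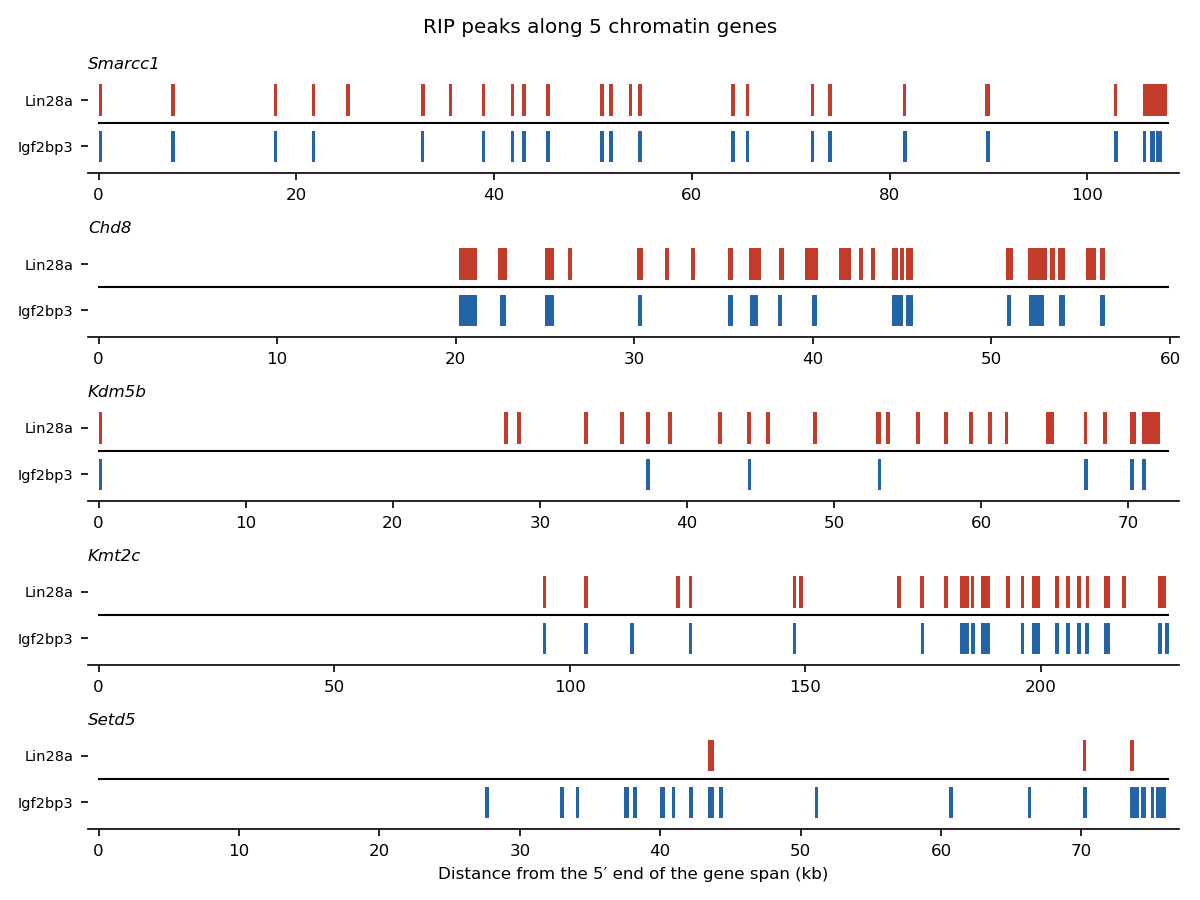
Lin28a-RIP peaks (red, above the line) and Igf2bp3-RIP peaks (blue, below) of Smarcc1, Chd8, Kdm5b, Kmt2c and Setd5, as distance in kb from the 5′ end of the RefSeq gene span, with narrow peaks drawn wider to be visible. In Smarcc1 20 of 23 and in Kmt2c 17 of 23 Lin28a-RIP peaks meet an Igf2bp3-RIP peak, Kdm5b has more Lin28a-RIP peaks and Setd5 more Igf2bp3-RIP peaks.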

How the data were processed

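The members, role lists and partner lists were chosen with earlier results of these data known. Input libraries (RNA) and m6A-, Igf2bp3- and Lin28a-RIP libraries were analysed. The authors deposited estimated counts per gene for the input, which were rounded here, and whole-number counts per peak for the RIP libraries, without scaling. The study names HISAT2, MACS2 and DESeq2. The program that counted reads is not given in the sources used here, and the processing notes name both mm10 and GRCh38. Start, end and width columns of the peaks were read as deposited positions, without a build stated.

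In the input file, Lin28a+ values stand under m6A-RIP headings, and in the m6A-RIP file both Lin28a+ headings are identical. These columns were assigned to the group whose sample labels point to the table, with no replicate number. No per-sample column was left unused (0 columns). Rows were matched to symbols by Ensembl or Entrez identifier, for 99.96% or more of rows. Tests were run over all features in R 4.3.3 with edgeR 4.0.16 (quasi-likelihood, TMM, filterByExpr, adjusted p under 0.05), with m6A-RIP and Igf2bp3-RIP also summed per gene and set against RNA by an interaction term. Scripts were tested on simulated data. DESeq2 1.42.0, other scalings, no filter, a replicate block and each library left out were the alternatives. Figures were drawn with matplotlib 3.10.9.

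Named genes follow a rule: the PRC2 core, in each other role the 2 highest and 2 lowest called members without overlap between groups, the 3 members or peaks with the smallest p in either direction for peaks and relative values, the 3 members with the widest row spread, the 5 members with most Lin28a-RIP peaks, the 5 highest peaks, and the higher and lower gene with the smallest p in each partner list. Others were named after their values were seen. Lin28a itself and 1 partner gene that the rule names are not reported here.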

Additional observations from a re-analysis of the deposited data

How the results depend on the processing

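Among the called members and rows that the naming rule picked, directions held under each alternative run. Directions of the other called members were not compared. The calls depended on the tool and on single libraries. In RNA, DESeq2 called 3 members higher and 6 lower in place of 10 and 20, while other scalings and no filter gave 9 or 10 higher and 19 or 20 lower. With a library left out, RNA gave 6 to 9 higher, where the lowest count was without control library 1, and 17 to 18 lower. For m6A-RIP relative to RNA, leaving out a library gave 0 higher and 0 to 2 lower, the latter being Smarcd2 without control m6A-RIP library 2 and Chd9 and Smarca4 without a Lin28a+ library. For Igf2bp3-RIP relative to RNA it gave 0 to 3 higher and 0 to 8 lower, with 0 lower whenever an input library was left out (0 over all genes too, in edgeR) and most calls without Lin28a+ Igf2bp3-RIP library 1, where 281 genes were higher and 279 lower over all 3919 tested. In these fits the lone library left in a group is assumed to vary like the others. Total counts gave 0 lower. The cause was not tested.

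The labels give both groups the same replicate numbers and state no pairing, and the deposited columns carry them in both groups only for Igf2bp3-RIP. Differences between libraries 1 and 2 of the groups correlated with r = 0.70 over peaks. With a replicate block, 3 member peaks were higher and 6 lower, and relative to RNA 6 members were higher and 11 lower, as calls over all peaks went from 24 to 1988, over all genes from 13 to 370 and relative to RNA from 41 to 1300. The summed Igf2bp3-RIP level of members kept 0 calls.

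The share of Lin28a-RIP member peaks overlapping an Igf2bp3-RIP peak was 49.5% with peaks of at least 100 counts in every library and 50.3% with 50% reciprocal overlap, against 43.0% of all Lin28a-RIP peaks under the latter rule. Under the former rule the share over all Lin28a-RIP peaks was not taken, so the members cannot be set beside it. Among genes and peaks named from a test, 489 values under an alternative kept their side of the threshold, 46 lost the call and 5 gained it. No filter changed nothing in the RIP tables, since filterByExpr removed no row there. With 2 libraries per group and a wide spread in Igf2bp3-RIP, differences of the size seen in RNA may go uncalled.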

Other observations

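Pseudogenes that carry a member's name were left out by the rule because the input table does not list them. Smarca5-ps had 2 Igf2bp3-RIP peaks and 2 Lin28a-RIP peaks, while Smarca5 itself had 18 and 21. Reads of such near-identical copies may be shared between the loci, and the values of Smarca5 are uncertain to that extent.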
